A study of Drosophila melanogaster with 2 samples.

Results

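The genes described here build the glycosylphosphatidylinositol (GPI) anchor and the N-linked glycan, and the measurement is binding of the transcription factor toe (twin of eyegone) at their start sites. The members are the 38 protein-coding genes of the Ensembl fly annotation whose symbol begins with PIG- or with Alg and a digit, together with Stt3A, Stt3B, Ost48, OstDelta, gny, wol and xit, out of 13968 protein-coding genes on the main chromosome arms. Of the 38, 21 are PIG genes of the GPI anchor and 17 are genes of N-glycosylation. The data are chromatin immunoprecipitations from whole adult male Drosophila melanogaster of unknown age, from 1 transgenic line that stably expresses toe with GFP fused to its C-terminus, recovered with an antibody against GFP. The toe gene encodes a Pax-like transcription factor with a homeodomain. There were 2 biological replicates of this 1 group, numbered 3 and 2, and no second condition. A control that the labels name was not analysed here. Whole animals were used, so strong binding in few cells and weak binding in many cells cannot be told apart.

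A GPI anchor is a glycolipid assembled on the membrane of the endoplasmic reticulum and joined to the C-terminus of proteins that are to be held at the cell surface. It is begun by a GlcNAc transferase complex, extended by mannosyltransferases and ethanolamine phosphate transferases, and attached by a transamidase. An N-linked glycan is assembled on the lipid dolichol in the same membrane by the Alg enzymes, which add sugars first on the cytosolic and then on the lumenal face, and is moved to asparagine by oligosaccharyltransferase. Both pathways use mannose carried on dolichol phosphate. The roles given for single genes are mostly those known for their yeast and human counterparts.

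A gene is called bound where a summit of the authors' list of peaks reproducible between replicates (irreproducible discovery rate, IDR) lay within 500 bp of one of its annotated start sites on dm6. By this rule 16 of the 38 members were bound (42.1%), against 19.3% of all protein-coding genes. By pathway, 12 of 21 GPI anchor genes (57.1%) and 4 of 17 N-glycosylation genes (23.5%) were bound. The set was selected on the same peak calls, since it was put together with its binding known, so these shares are a description and carry no test. Signal values below are the authors' own, of a scale that differs between lists, so ranks are given beside them for the bound members.

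Most of the count came from peaks in front of a neighbouring gene as well. When each peak was given only to the protein-coding gene with the nearest start site, 5 of the 38 members were bound (13.2%), against 14.5% of all protein-coding genes. They were 3 of 21 GPI anchor genes (14.3%), namely PIG-H, PIG-K and PIG-Q, and 2 of 17 N-glycosylation genes (11.8%), namely Alg1 and Alg9. Under this setting the shares of both pathways were thus close to each other and not above that of all genes. At the other 11 bound members the start site of another protein-coding gene was nearer to the summit. The summit of the reproducible list was used for this, and at PIG-A the summits of both replicates were nearer PIG-A. Which of the genes at a shared peak responds to toe was not tested.

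The sequences under 4 of the strongest peaks are shown so that the part around the summit of the stretch between the start sites can be read. Each runs 5′ to 3′ on the strand of the named gene, with the RefSeq copy of dm6 as its source, and covers up to 100 bp on each side of the summit, shortened so that at most 30 bases lie in annotated exons. The windows are chr3L:19612202-19612402 (plus strand) for PIG-F, chr2L:8514854-8515036 (plus strand) for PIG-U, chr3L:3319306-3319506 (minus strand) for PIG-C and chr3R:25069697-25069897 (minus strand) for Stt3B. Capitals mark words on either strand. These are ACAGTGG and ATTCCAAAA at PIG-F, ATTCCAAAA at PIG-U and Stt3B, and GGTCACACT and CGATA at PIG-C. ATTCCAAAA was chosen after these sequences were read, and not every word searched is marked. TATAAA at PIG-F, for example, is left in lower case.
PIG-F: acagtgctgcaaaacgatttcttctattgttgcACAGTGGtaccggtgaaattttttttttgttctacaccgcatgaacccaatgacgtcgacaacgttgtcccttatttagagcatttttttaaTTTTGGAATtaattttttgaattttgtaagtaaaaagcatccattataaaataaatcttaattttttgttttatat
PIG-U: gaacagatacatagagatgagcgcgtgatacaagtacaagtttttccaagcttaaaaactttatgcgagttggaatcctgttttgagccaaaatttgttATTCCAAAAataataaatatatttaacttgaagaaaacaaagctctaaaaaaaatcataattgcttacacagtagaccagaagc
PIG-C: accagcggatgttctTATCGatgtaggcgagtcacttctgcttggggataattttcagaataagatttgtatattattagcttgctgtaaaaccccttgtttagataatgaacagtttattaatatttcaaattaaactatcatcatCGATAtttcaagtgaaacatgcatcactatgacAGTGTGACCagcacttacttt
Stt3B: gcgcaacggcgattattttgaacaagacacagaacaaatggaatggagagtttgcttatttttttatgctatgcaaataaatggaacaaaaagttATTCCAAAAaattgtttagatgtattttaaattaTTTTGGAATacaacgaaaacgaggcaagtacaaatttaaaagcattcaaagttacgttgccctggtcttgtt

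For comparison, the bases before the most upstream start site of 3 members with no reproducible peak, the first in alphabetical order, are chr3L:11164787-11164971 (plus strand) for Alg10, chr3L:21625633-21625806 (plus strand) for Alg11 and chr3R:9756291-9756491 (plus strand) for Alg12. Capitals mark CGATA at Alg10 and Alg12 and also CAGCTG at Alg12. CACGTG at Alg12 and TATAAA at Alg10 and Alg12 are left in lower case. Alg11 was not without any region. The pooled list held a weaker one (3L, 21625998 to 21626417), which lies outside the bases printed for it.
Alg10: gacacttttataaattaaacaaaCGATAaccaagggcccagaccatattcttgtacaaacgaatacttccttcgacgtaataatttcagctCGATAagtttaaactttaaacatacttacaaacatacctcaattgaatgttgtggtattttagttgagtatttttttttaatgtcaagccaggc
Alg11: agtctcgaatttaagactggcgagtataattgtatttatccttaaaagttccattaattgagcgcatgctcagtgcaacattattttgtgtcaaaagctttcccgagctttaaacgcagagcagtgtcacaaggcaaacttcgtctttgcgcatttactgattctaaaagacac
Alg12: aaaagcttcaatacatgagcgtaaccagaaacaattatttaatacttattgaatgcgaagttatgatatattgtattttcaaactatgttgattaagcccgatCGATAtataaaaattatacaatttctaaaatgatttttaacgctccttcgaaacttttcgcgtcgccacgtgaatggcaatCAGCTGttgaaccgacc

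PIG-F had the strongest peak of all members. PIG-F encodes the partner protein of the ethanolamine phosphate transferases, and its peak (3L, 19612130 to 19612537) had a signal of 1008 in the reproducible list (rank 16), 354 in replicate 3 (rank 26) and 653 in replicate 2 (rank 10). Both replicates placed it near the top of their 30000 regions. The summit lay 153 bp upstream of PIG-F and 103 bp from the start site of Lon, a mitochondrial protease gene on the opposite strand. PIG-G, which encodes an ethanolamine phosphate transferase, had a peak (2R, 7519087 to 7519286) with a signal of 265 in the reproducible list (rank 421), 86.5 in replicate 3 (rank 696) and 174 in replicate 2 (rank 351). Its summit lay 187 bp upstream and 157 bp from CG1602. The other genes of this step, PIG-N and PIG-O, were not bound.

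Of the 5 genes of the GlcNAc transferase, which makes the first intermediate, 4 were bound. PIG-C had the strongest of these peaks (3L, 3319289 to 3319520), with a signal of 331 in the reproducible list (rank 271), 131 in replicate 3 (rank 308) and 193 in replicate 2 (rank 287). Its summit, in the middle of the sequence printed for it, lay 174 bp upstream and 149 bp from the start sites of both Dpm2 and CG12016. Dpm2 encodes a subunit of dolichol phosphate mannose synthase, so this single peak lies between genes of the same anchor pathway. PIG-A, the catalytic subunit, had a peak (2R, 17739613 to 17740032) with a signal of 221 in the reproducible list (rank 594), 99.0 in replicate 3 (rank 552) and 124 in replicate 2 (rank 683), in a gap of 216 bp shared with the vesicle trafficking gene Vps50. At PIG-Q the signal of the peak (X, 16358993 to 16359412) was 134 in the reproducible list (rank 1230), 71.2 in replicate 3 (rank 964) and 63.2 in replicate 2 (rank 1767). PIG-H was near the limit of the list, and its peak (3R, 7999656 to 8000075) had a signal of 61.9 in the reproducible list (rank 3225), 25.7 in replicate 3 (rank 4419) and 35.5 in replicate 2 (rank 3560). At PIG-Q and PIG-H the summit lay in the gene's own 5′ UTR, 60 bp and 34 bp after the nearest start site, unlike at PIG-C and PIG-A. PIG-P was not bound.

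The transamidase, which joins the finished anchor to protein, had 3 of 4 genes bound. PIG-U had the strongest of these peaks (2L, 8514816 to 8515069), with a signal of 353 in the reproducible list (rank 233), 130 in replicate 3 (rank 312) and 225 in replicate 2 (rank 210). Its summit lay 160 bp upstream and 68 bp from CG13097. PIG-K, the protease subunit, had a peak (X, 2009548 to 2009967) with a signal of 170 in the reproducible list (rank 911), 88.9 in replicate 3 (rank 671) and 81.4 in replicate 2 (rank 1274). Its summit, 394 bp upstream and 199 bp from lncRNA:CR45478, was the most distant of the bound members. PIG-S had a peak (3R, 24917814 to 24918233) with a signal of 102 in the reproducible list (rank 1729), 42.3 in replicate 3 (rank 2093) and 57.1 in replicate 2 (rank 2006). It starts as far from the summit as sud1 on its own strand, 160 bp, while CG11168 on the other strand starts 82 bp away. PIG-T was not bound.

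The deacetylase and mannose steps were bound in part. PIG-L, the deacetylase of the second step, had a peak with a signal of 229 in the reproducible list (rank 563), 107 in replicate 3 (rank 474) and 145 in replicate 2 (rank 520). The summit was 194 bp upstream and 172 bp from psidin, a gene of the N-terminal acetyltransferase B complex. Neither PIG-Wa nor PIG-Wb, which are named for the inositol acyltransferase, was bound. Among the 5 genes of the mannosyltransferases and their partners, PIG-M and PIG-V were bound and PIG-B, PIG-X and PIG-Z were not. PIG-M, the first mannosyltransferase, had a peak (2R, 21669982 to 21670105) with a signal of 232 in the reproducible list (rank 553), 101 in replicate 3 (rank 531) and 133 in replicate 2 (rank 598). CG42379, CG42380 and CG42381 start as far from that summit as PIG-M, 131 bp, and NC2alpha, a general transcription regulator, starts 105 bp away on the other strand. PIG-V, the second mannosyltransferase, had a weaker peak (2R, 16955124 to 16955543), with a signal of 95.8 in the reproducible list (rank 1893), 42.9 in replicate 3 (rank 2043) and 52.8 in replicate 2 (rank 2218). That summit was 124 bp upstream and 68 bp from mute.

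In N-glycosylation both genes of the catalytic subunit of oligosaccharyltransferase were bound. Stt3B had a peak (3R, 25069716 to 25069849) with a signal of 260 in the reproducible list (rank 438), 96.7 in replicate 3 (rank 586) and 163 in replicate 2 (rank 409). Its summit lay 160 bp upstream and 130 bp from CG11839. Stt3A had a peak (X, 21054079 to 21054498) with a signal of 206 in the reproducible list (rank 680), 79.2 in replicate 3 (rank 815) and 126 in replicate 2 (rank 665). That summit lay 352 bp upstream, in a 5′ UTR of bves on the opposite strand, and a second peak lay 598 bp from the start site in an intron of Stt3A, with a signal of 144 (rank 1131). Ost48 and OstDelta, which encode other subunits, were not bound.

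The Alg enzymes were mostly without a peak, as were most protein-coding genes, of which 19.3% were bound. Alg1, the first mannosyltransferase of the cytosolic face, had a peak (3R, 17811055 to 17811474) with a signal of 125 in the reproducible list (rank 1332), 36.0 in replicate 3 (rank 2607) and 90.2 in replicate 2 (rank 1119). Alg9, a lumenal mannosyltransferase, had the weakest peak of all bound members (3R, 25221342 to 25221761), with a signal of 59.5 in the reproducible list (rank 3381), 20.5 in replicate 3 (rank 6906) and 41.5 in replicate 2 (rank 2977). Both ranked lower in replicate 3 than in replicate 2. The genes of the glucose steps, namely wol (Alg5), gny (Alg6), xit (Alg8) and Alg10, were 0 of 4 bound, and the cytosolic steps had 1 of 6.

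**Figure D1:**
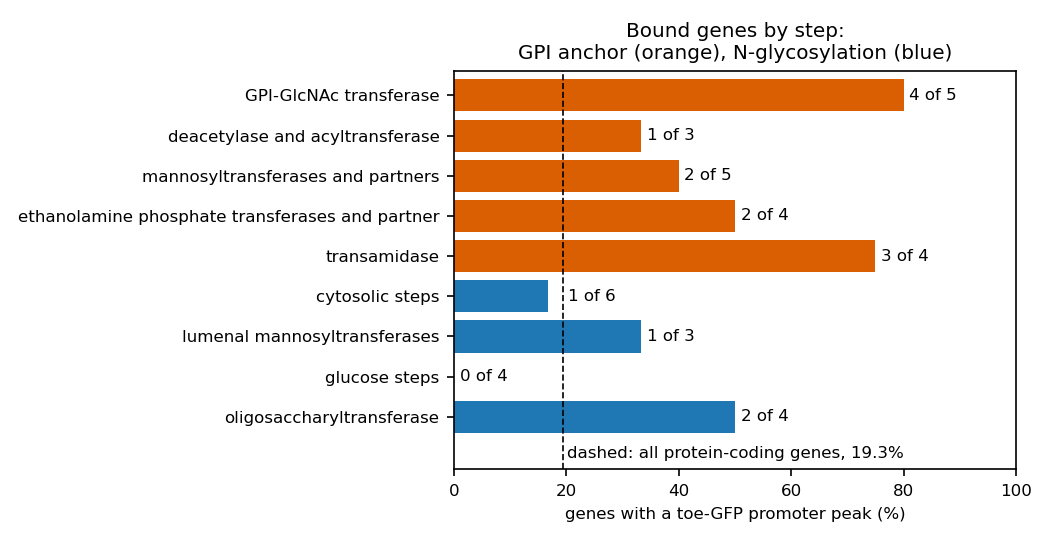
Share of genes bound at each step of GPI anchor synthesis (orange) and N-glycosylation (blue), with the counts beside the bars; the dashed line is the 19.3% of all protein-coding genes. The GlcNAc transferase (4 of 5) and the transamidase (3 of 4) have the highest shares, and the glucose steps have 0 of 4.

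The signal of the bound members' peaks ran from 59.5 to 1008 with a median of 213. The median was 135 over the strongest peak of each of the 2701 bound protein-coding genes and 102 over all reproducible peaks. Among the members it was 225 over the 12 bound GPI anchor genes and 165 over the 4 bound N-glycosylation genes. Of the 16, 13 were among the strongest 1734 of the 3469 peaks and 14 had a q-value under 0.05. For the 2701 bound protein-coding genes these counts were 1775 and 2491. PIG-H and Alg9 missed the q-value limit. They are also the members just inside the limit of the list, whose lowest signal was 58.2. The first member outside was Alg11, with a pooled region of signal 46.6 and rank 4572.

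Both replicates held a region at each of the 16 peaks. Of these regions, 14 were among the 3469 strongest of replicate 3 and 15 among the 3469 strongest of replicate 2. The reproducible list was made from the same 2 replicates, so this is not independent evidence. Counted in each replicate alone at the same number of regions, 16 members were bound in replicate 3 (19.7% of all protein-coding genes) and 18 in replicate 2 (21.1% of all protein-coding genes). In replicate 3 this set lacked PIG-H and Alg9 and held Alg3 and Alg11, and in replicate 2 it lacked PIG-H and held Alg3, PIG-N and PIG-Wb.

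Alg3 is the clearest case in which the lists differ. Alg3 encodes the mannosyltransferase that opens the lumenal steps, and the rule leaves it unbound, with the nearest reproducible summit 2806 bp away. Replicate 3 nevertheless held a region 67 bp upstream of its start site (2R, 23709757 to 23709955) with a signal of 172 and rank 173. Replicate 2 held a region 70 bp upstream (2R, 23709740 to 23709970) with a signal of 258 and rank 155. Neither the pooled nor the reproducible list held a region there, and the cause was not tested. Among the 2535 strongest regions of replicate 2 that overlapped a strongest region of replicate 3, 92 (3.63%) had no overlapping region in the pooled list. Only 2 of those 92 ranked as high in replicate 2 as the one at Alg3 or higher, counting that one.

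Over the whole pooled list of 30000 regions, background included, 19 of the 38 members had a region at a start site, against 41.9% of all protein-coding genes. Beyond the 16 bound members these were Alg11, PIG-Wb (strongest region of signal 31.5 and rank 9209) and PIG-T (28.4, rank 12026). At Alg11 the replicates differed, with a rank of 3166 in replicate 3 and 17091 in replicate 2. At PIG-N the region was in replicate 2 only, with a signal of 72.1 and rank 1482. PIG-P and PIG-X had a region in replicate 3 alone (ranks 12179 and 20664), and PIG-Wa and PIG-Z had one in replicate 2 alone (ranks 15711 and 18908).

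No list held a region within 500 bp of a start site of 13 members. Of these, 11 were N-glycosylation genes (Alg2, Alg7, Alg10, Alg12, Alg13, Alg14, Ost48, OstDelta, gny, wol and xit), and 2 were GPI anchor genes (PIG-B and PIG-O). Over all protein-coding genes 41.9% had a region in the pooled list. The share with no region in any list was not counted, so these numbers do not show a lack particular to N-glycosylation. For the 22 members without a reproducible peak, the nearest reproducible summit lay between 1132 bp (PIG-P) and 71356 bp (PIG-X) away, with a median of 9124.5 bp. None was within 1000 bp (0 genes), so the count of bound members did not depend on summits just past 500 bp.

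**Figure D2:**
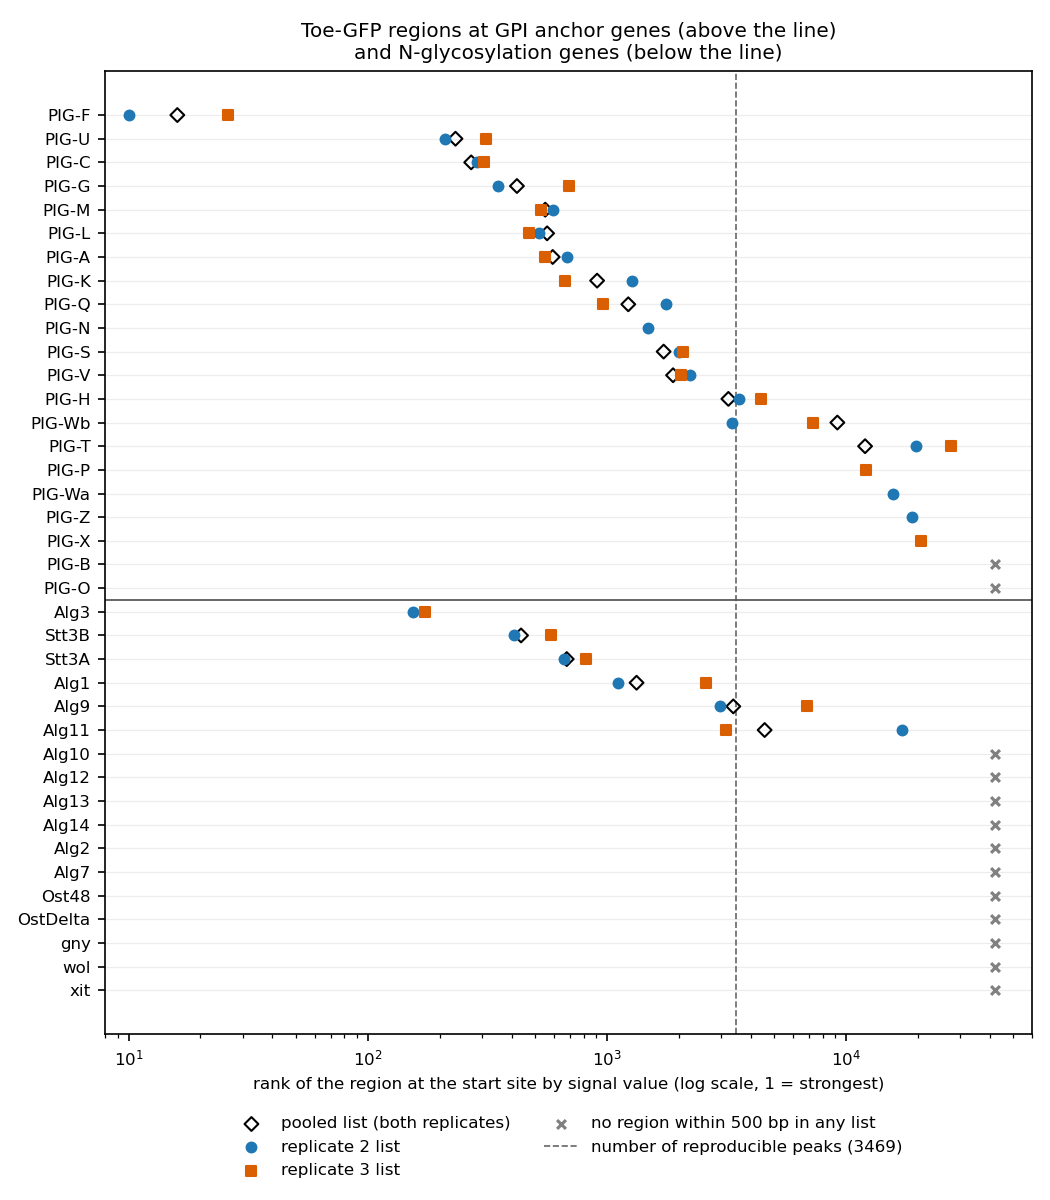
Rank by signal value (log scale, 1 is the strongest) of the region within 500 bp of a start site of each member in the pooled list (diamonds), replicate 2 (circles) and replicate 3 (squares); grey crosses are the 13 members without one. Alg3 ranks 173 and 155 in replicates 3 and 2 and has no pooled region, and most Alg genes have no region at all.

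The bound members are mostly arranged head to head with a neighbour. A protein-coding gene on the opposite strand starts within 1000 bp upstream of 13 of the 16 bound members (81.3%), against 62.8% of all bound protein-coding genes. Such a neighbour was also upstream of 12 of the 22 other members (54.5%), and of 36.2% of all protein-coding genes. The members as a whole (25 of 38, 65.8%) thus have more such neighbours than all genes. Genes so arranged were also bound more often over the whole genome, so the values are given within each class. The members were chosen with their binding known, and a shared peak counts for both genes of a pair. The values within each class are thus a description, and whether the arrangement accounts for the share of bound members was not tested. With a head-to-head neighbour, 13 of 25 members (52.0%) were bound, against 33.6% of all such genes. Without one, 3 of 13 members (23.1%) were bound, against 11.3% of all such genes. These 3 were PIG-H and Alg9, which missed the q-value limit, and PIG-K, whose summit lay 394 bp upstream.

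The summit usually lay inside the gap, closer to the neighbour. It was between the start sites in 11 of the 13 bound head-to-head members, against 72.1% of all bound head-to-head genes. The start site of another protein-coding gene was nearer in 11 of the 13, against 43.7%. This side was read from the summit of the reproducible list, and at most of the 11 the replicate summits kept it. At PIG-A, with a gap of 216 bp, the summits of replicates 2 and 3 lay 55 bp and 92 bp upstream, nearer PIG-A. At PIG-L, with a gap of 366 bp, they lay 238 bp and 68 bp upstream, so the replicates differed. Across the 16 bound members the summit was 100 to 200 bp upstream of the start site in 11 (68.8%), against 34.4% of bound protein-coding genes, and upstream at any distance in 14 (87.5%), against 87.1%. The members whose summits lay downstream of the nearest start site were PIG-Q and PIG-H, which have 2 start sites each. At PIG-Q the summit of replicate 2 lay 57 bp upstream of the start site nearest to it. No test was made of these shares.

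**Figure D3:**
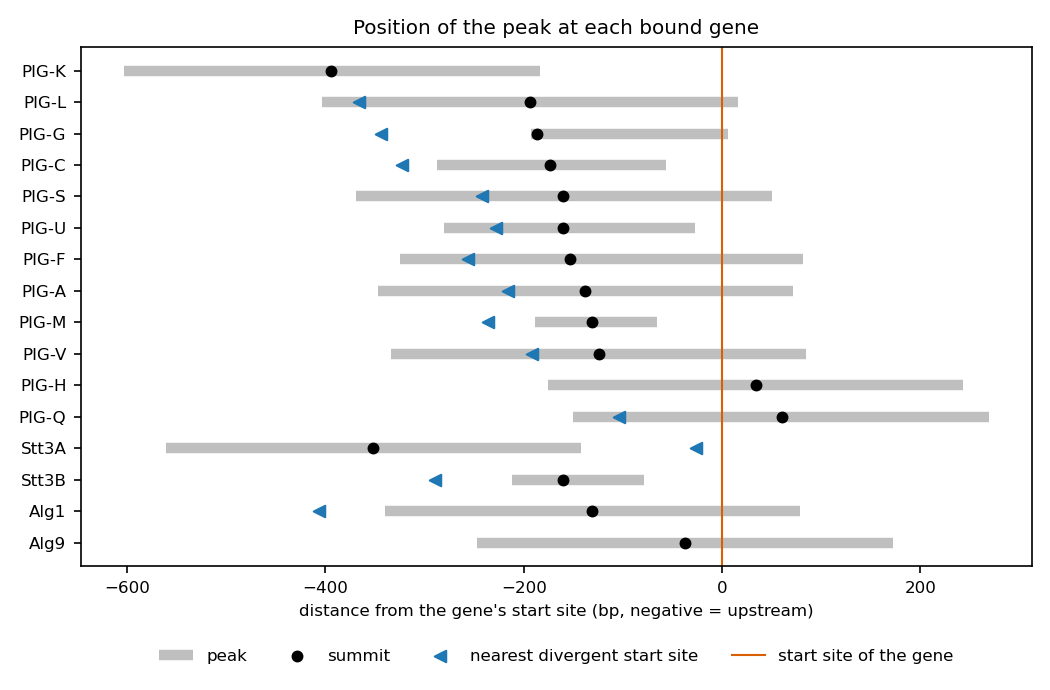
Position of the peak (grey bar) and its summit (black dot) relative to the start site (orange line at 0) of each bound member, in bp with negative values upstream; blue triangles are the nearest start site of a protein-coding gene on the opposite strand. Summits of 11 members lie 100 to 200 bp upstream, and PIG-Q and PIG-H lie just downstream of their nearest start site.

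Short words of a fixed list were looked up on both strands. The stretch searched was the 300 bases from 250 before to 50 after the most upstream start site. The list was chosen with earlier results of these data known. The DNA replication-related element TATCGATA was present at 5 of 16 bound members (Alg9, PIG-C, PIG-G, PIG-V and Stt3B), at 5 of 22 other members, at 15.0% of all bound genes and at 9.36% of all protein-coding genes. Its inner word CGATA, the insulator core, was present at 12 of 16 and 12 of 22, against 56.3% of all bound genes and 47.3% of all genes. Core promoter motif 1, GGTCACACT, was present at 3 of 16 bound members (PIG-A, PIG-C and PIG-K) and 4 of 22 others, against 8.11% and 6.04%. The E-box CAGCTG was present at 6 of 16 and 10 of 22, against 23.4% and 17.6%. The 22 other members include Alg3, which had a high-ranking region in both replicates and holds TATCGATA, CGATA and CAGCTG.

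The word ACAGTGG was present at 1 of 16 bound members, PIG-F, and 0 of 22 others, against 5.81% of all bound genes and 3.49% of all genes. AGTGTTG was present at 3 of 16 and 2 of 22, against 13.9% and 7.30%. The homeodomain core TAATTA was present at 2 of 16 and 4 of 22, against 22.9% and 20.4%. GAGAGAG, the paired domain core GTCACGC and TGACGTG, a core of unfolded protein response elements, were present at 0 members of either kind. Their shares over all protein-coding genes were 5.86%, 1.50% and 1.42%. CACGTG (2 of 16 and 2 of 22), TATAAA (9 of 16 and 11 of 22) and the initiator core TCAGT (6 of 16 and 12 of 22) were also counted, against 4.20%, 45.8% and 51.5% of all genes.

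Within 100 bp of the summit, a shorter window than the promoter, most of these words were at fewer members. TATCGATA was present at 1 of the 16 bound members, against 7.25% of the 2289 reproducible peaks at start sites, and CGATA at 3 of 16, against 40.8%. ACAGTGG was there at 2 of 16, PIG-F and Stt3A, against 5.90%, and TATAAA at 7 of 16, against 35.9%. The windows were also poor in G and C, with a median share of 31.6%, against 35.8% at all reproducible peaks at start sites.

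Other genes of the same pathways, listed by function rather than by the naming rule, had 18 of 51 members bound (35.3%, again beside 19.3% of all protein-coding genes). In the list for the GPI pathway 6 of 9 were bound. They were Dpm2 through the peak it shares with PIG-C, Dpm3 (signal 86.7), PGAP1 (signal 125), PGAP2 (signal 241) and PGAP3 (signal 218), named for remodelling of the attached anchor, and the metallophosphoesterase gene Mppe (signal 493). The place of Mppe in the GPI pathway was taken from the list and was not tested. The transamidase subunit gene GAA1, Dpm1 and PGAP5 were not bound. Of 13 genes that supply dolichol and sugar donors, 5 were bound, among them the GDP-mannose pyrophosphorylase genes Gmppa (signal 329) and Gmppb (signal 71.1), Gfat2 (signal 132) and mmy (signal 67.9). Gmppb ranked 2875 in replicate 2 and had no rank in replicate 3. Of 3 further oligosaccharyltransferase genes, Dad1 (signal 278) was bound.

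Of 26 genes that trim, fold or remodel N-glycans after transfer, 6 were bound (23.1%). These were the glucosidase subunit gene GCS2beta (signal 389), beta4GalNAcTB (signal 180), the chaperone gene Cnx99A (signal 166), Pngl (signal 112), Edem1 (signal 103) and alpha-Man-Ia (signal 62.1). The replicates differed most at alpha-Man-Ia, with a rank of 10296 in replicate 3 and 2851 in replicate 2. Given only to the nearest protein-coding start site, 14 of the 51 genes were bound (27.5%), against 14.5% of all protein-coding genes. The corresponding count for the named members was 5 of 38, and the difference was not tested.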

How the data were processed

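Toe-GFP was immunoprecipitated from whole adult males in 2 biological replicates (numbers 3 and 2), per the labels. The 4 dm6 peak lists were used. Per the notes deposited with the files, the authors called regions per replicate and on pooled alignments, against a control, and derived the reproducible list by IDR. Aligner and caller were not given in the sources used here. Each region's signal value is the authors' deposited value of unknown scale, so it was used to rank and describe regions within a list. The −log10 q-value was read from the deposited column by the usual layout of this file type. The lists hold no read counts, so depth is unknown. Regions on dm3 were not used.

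Start sites came from Ensembl release 115 (BDGP 6.54) and sequence from RefSeq's copy of that assembly. Transposable elements were left out. Python 3.11.15, pandas 2.3.3 and numpy 2.4.6 were used. Assignment of summits and the search for words were tested on simulated data. Every bound member and every member with a weaker region is named; the sequences shown follow signal value among members outside one chromosome arm, leaving out summits in exons, with the first 3 unbound members by alphabet for comparison. One pathway gene and one sequence are not reported here. The lists of pathway genes were matched by symbol (51 matched, 11 not). Members, lists, words and alternatives were chosen with earlier results of these data known, so no test was made. With 1 group, conditions could not be compared. The alternatives covered the window, the peak threshold, the gene given a peak, and each replicate alone.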

Additional observations from a re-analysis of the deposited data

How the results depend on the processing

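The number of bound members stayed within 1.5 times of 16 under 7 of 8 alternatives. It was 14 with a 200 bp window (14.4% of all protein-coding genes), 16 with 1000 bp (21.8%), 13 among the strongest 1734 peaks (12.7%), 14 at a q-value under 0.05 (17.8%), 16 with any base of the peak in the window (20.5%), and 16 and 18 in replicates 3 and 2 alone. Giving each peak only to the nearest protein-coding start site left 5 members, 3 GPI anchor genes and 2 N-glycosylation genes; by construction a shared peak then counts for 1 side. The count of bound members overlapping the strongest regions of both replicates was 14, and 11 when 50% of both regions had to overlap. Words were also counted at the 16 bound members within 100 bp of the summit, in place of the 300-base promoter. The counts were 1 for TATCGATA, 3 for CGATA, 1 for GGTCACACT, 2 for ACAGTGG and 0 for AGTGTTG. They were 1 for CAGCTG, 1 for CACGTG, 2 for TCAGT and 1 for TAATTA, while TATAAA stayed at 7. The summit window is shorter (100 bp on each side) and lies elsewhere. No paired analysis was possible because the data hold 1 group. Depth is unknown, so an absent region does not show absent binding.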

Other observations

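A word not looked up beforehand was read off the printed sequences. ATTCCAAAA, on either strand, lay within 100 bp of the summit at 3 of the 16 bound members, namely PIG-F, PIG-U and Stt3B, with 2 copies in opposite directions at Stt3B. It was present in 17 of the 2289 windows at all reproducible peaks at start sites (0.743%) and in 32 of 3469 at all reproducible peaks (0.922%). In the 300-base promoters it was present at 3 bound members, at 0 of 22 other members and at 1.20% of all protein-coding genes. The word was chosen because these sequences hold it, the windows of the members are rich in A and T, and no test was made.

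The genes on the other side of the shared peaks have varied roles. They include Lon (mitochondrial protein quality), Vps50 (endosomal trafficking), psidin (protein acetylation), NC2alpha (transcription), U2af50 (splicing, 164 bp from the summit at PIG-Q) and mute (histone gene expression). The pair of PIG-C and Dpm2 is the one in which both genes belong to the lists described here.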
